A study of Homo sapiens with 14 samples.

Results

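FOXA1, GATA2, GATA3, NR3C1, NCOA1, NCOA2, NCOA3 and NCOR1 encode proteins that work with steroid hormone receptors on chromatin. These 8 genes were selected by their symbols, as the factors most often discussed with the androgen receptor in prostate cells, out of 27819 genes that the 4 deposited count tables share. All 8 passed the filter on low counts in each comparison. Their values were measured by RNA-seq in CWR22Rv1, a human prostate cancer cell line that expresses the androgen receptor. Treatment lasted 72 h, and the groups were the DMSO vehicle with 3 libraries, P-SiaFNEtoc at 2 μM with 3, SGN-2FF at 100 μM with 3, Fucotrim I at 30 μM with 3 and Fucotrim II at 60 μM with 2. Fucotrim I and Fucotrim II were designed to block the de novo synthesis of GDP-fucose, SGN-2FF is a fluorinated fucose analog taken up by the salvage pathway, and P-SiaFNEtoc blocks sialyltransferases. All groups come from 1 cell line, and each inhibitor was used at a single dose, so each inhibitor is tested against the same 3 DMSO libraries only. No test was run between inhibitors, and where the groups are put in order of level this describes their libraries.

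Steroid receptors find most of their sites in chromatin that other factors have already opened. FOXA1 and the GATA proteins are such pioneer factors, which bind nucleosomal DNA and mark enhancers of the luminal prostate programme. NR3C1 is the glucocorticoid receptor, a close relative of the androgen receptor that recognizes the same DNA element and can drive an overlapping set of genes in prostate cancer. Receptors on DNA recruit the p160 coactivators NCOA1, NCOA2 and NCOA3, which bring in histone acetyltransferases, or corepressors such as NCOR1, which carries the histone deacetylase HDAC3.

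The libraries held between 12553094 and 19981453 counts on genes. Levels are given as CPM, the counts of a gene scaled to the TMM-adjusted size of its library, and changes as log2 fold changes against DMSO with their standard errors (SE). A gene is said to have risen or fallen where the adjusted p of edgeR's quasi-likelihood test (Benjamini-Hochberg, over all genes tested) was under 0.05. The luminal markers of the labelled cell line were all present, from KRT18 at 131.0 ± 4.82 CPM per kb of exon in DMSO (SD, n = 3) down to TMPRSS2 at 4.43 ± 0.0935. In the DMSO and Fucotrim I libraries PECAM1, PTPRC and CD3E of the stromal and blood cell list averaged under 2 counts a library, and KRT5, KRT14 and TP63 of the basal list under 1. Other genes of these lists were counted in the same libraries. COL1A1 averaged 286.3 and COL3A1 10.7 counts on the stromal list, and DST 991.5 and KRT15 21.8 on the basal list. The share of counts from mitochondrially encoded genes was 5.99 to 7.04% in DMSO, 8.68 to 14.2% with Fucotrim I, 12.2 to 17.0% with Fucotrim II, 8.28 to 8.69% with SGN-2FF and 6.12 to 6.84% with P-SiaFNEtoc. With these genes left out before scaling, 5, 5, 4 and 4 of the 8 genes described here were called with Fucotrim I, Fucotrim II, SGN-2FF and P-SiaFNEtoc, against 6, 5, 4 and 4 with them.

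Promoters are shown of the 4 genes that passed the test with SGN-2FF, of which GATA2 and GATA3 rose and NR3C1 and NCOA1 fell, since FOXA1, GATA and receptor proteins act through short motifs in DNA. Each is a 300-base window from RefSeq (GRCh38.p14, the hg38 build), printed 5′ to 3′ on the gene's strand. Other listed windows of these genes are not printed, and the choice among them does not rest on evidence of use. Capitals mark exact matches on either strand to 4 motifs. The FOXA motif searched was TGTTTAC. For GATA proteins it was AGATAA. The half-site of steroid receptors was taken as AGAACA. A GC box was taken as GGGCGG. The GATA2 window is chr3:128493152-128493451 on the minus strand, the GATA3 window chr10:8045083-8045382 on the plus strand, the NR3C1 window chr5:143403234-143403533 on the minus strand and the NCOA1 window chr2:24491004-24491303 on the plus strand.
GATA2: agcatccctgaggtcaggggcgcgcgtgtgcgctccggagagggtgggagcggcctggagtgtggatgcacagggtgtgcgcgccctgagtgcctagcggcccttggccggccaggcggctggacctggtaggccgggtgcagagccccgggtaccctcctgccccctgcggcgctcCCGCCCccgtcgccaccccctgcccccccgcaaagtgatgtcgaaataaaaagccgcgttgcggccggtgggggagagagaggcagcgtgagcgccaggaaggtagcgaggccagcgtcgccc
GATA3: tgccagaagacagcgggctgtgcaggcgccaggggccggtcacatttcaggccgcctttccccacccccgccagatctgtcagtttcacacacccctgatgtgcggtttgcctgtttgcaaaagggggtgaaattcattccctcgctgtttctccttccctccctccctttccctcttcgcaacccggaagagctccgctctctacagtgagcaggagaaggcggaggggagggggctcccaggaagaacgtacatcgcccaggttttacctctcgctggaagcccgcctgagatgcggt
NR3C1: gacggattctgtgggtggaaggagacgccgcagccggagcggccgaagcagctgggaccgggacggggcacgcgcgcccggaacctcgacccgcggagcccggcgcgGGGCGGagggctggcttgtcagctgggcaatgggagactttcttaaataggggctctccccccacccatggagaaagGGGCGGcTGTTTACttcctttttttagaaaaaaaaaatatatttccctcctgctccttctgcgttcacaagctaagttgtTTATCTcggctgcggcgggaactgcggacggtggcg
NCOA1: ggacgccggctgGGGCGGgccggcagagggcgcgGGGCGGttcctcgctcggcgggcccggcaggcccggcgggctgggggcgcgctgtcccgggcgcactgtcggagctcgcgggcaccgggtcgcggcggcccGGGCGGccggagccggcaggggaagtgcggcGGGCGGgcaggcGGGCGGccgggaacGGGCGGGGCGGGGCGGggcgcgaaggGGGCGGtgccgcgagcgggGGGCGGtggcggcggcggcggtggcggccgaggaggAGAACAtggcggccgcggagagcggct

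Among the listed windows of NR3C1, the one printed had the FOXA match, 59 bases before the start, and the GATA match, 14 bases after it, and the others had neither. NCOA1 had a receptor half-site 23 bases after the start printed here and a GATA match in another window, chr2:24584227-24584526. No FOXA, GATA or half-site match was found in the windows of FOXA1, GATA2, GATA3, NCOA3 or NCOR1, and that of NCOA2 was not searched here. Over 35116 RefSeq promoters of this length, 3.42% held the FOXA motif, 10.3% the GATA motif, 14.8% the half-site and 44.95% the GC box. These shares are per window, and genes with several listed windows, such as NR3C1, had more chances of a match. GC boxes mark many promoters of widely expressed genes. The NCOA1 window printed held 10 of them, partly overlapping, and had a GC content of 85.7%, against a median of 58.7% over all promoters. Another NCOA1 window, chr2:24491627-24491926, held 3. The GATA3 window printed held none, while the GATA3 windows chr10:8053391-8053690 and chr10:8054438-8054737 held 5 each. A match describes the sequence only, and counts on whole genes do not tell which start was used.

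The pioneer factors and the corepressor were the most abundant of the 8 genes in DMSO per kb of exon. FOXA1 stood at 97.9 ± 1.85 CPM per kb (SD, n = 3), GATA2 at 37.7 ± 1.44, NCOR1 at 11.5 ± 0.212 and GATA3 at 9.12 ± 0.745. The p160 coactivators and the glucocorticoid receptor were lower, with NCOA2 at 5.61 ± 0.137, NCOA3 at 5.36 ± 0.285, NR3C1 at 4.07 ± 0.230 and NCOA1 at 3.99 ± 0.208. The ranges of the 3 DMSO libraries did not overlap between neighbours from FOXA1 down to NCOA2, nor between NCOA3 and NR3C1, whereas NCOA2 with NCOA3, and NR3C1 with NCOA1, did overlap. Of 10 listed FOXA, GATA and steroid receptor relatives, 3 or 4 passed the filter in a comparison and none of those passed the test. Nearest to it were FOXA3 with P-SiaFNEtoc (log2 fold change 1.04, edgeR adjusted p = 0.052, mean count 14.8) and GATA6 with Fucotrim I (-0.26, edgeR adjusted p = 0.0598). The levels per kb in DMSO were 3.39 ± 0.223 for GATA6, 2.82 ± 0.123 for the mineralocorticoid receptor NR3C2, 0.266 ± 0.101 for FOXA3 and 0.141 ± 0.0277 for the oestrogen receptor ESR2.

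**Figure D1:**
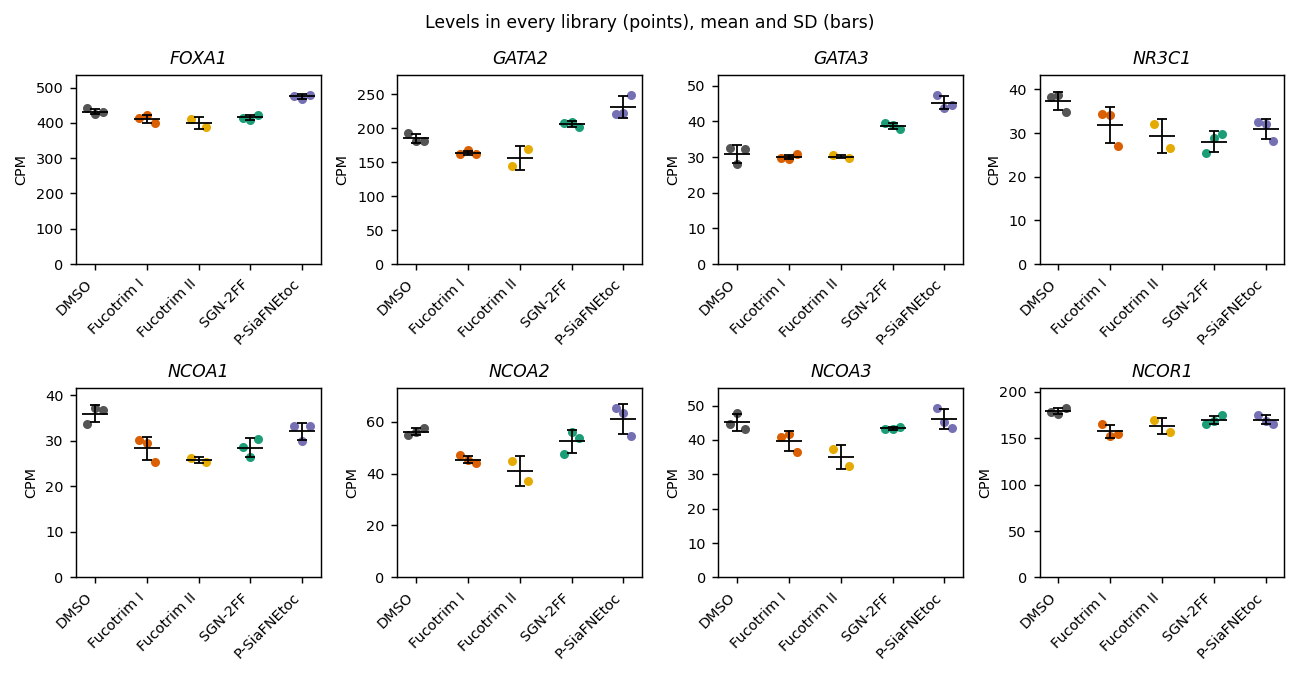
CPM of each of the 8 genes (y axis, from 0) in all 14 libraries, by treatment (x axis). Points are libraries, and bars give the mean and SD of a group. GATA3 was lowest at 28.1 CPM in DMSO and highest at 47.4 CPM with P-SiaFNEtoc, while every treated library of NR3C1 lay below the lowest DMSO library at 34.9 CPM.

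Over the 8 genes, 6 fell and none rose with Fucotrim I, where 22.1% of the 14188 genes tested fell and 21.6% rose. With Fucotrim II, 5 fell and none rose, where 25.7% of 14617 genes fell and 25.6% rose. With SGN-2FF 2 fell and 2 rose, against 9.08% and 11.5% of 14312 genes, and with P-SiaFNEtoc 1 fell and 3 rose, against 7.33% and 9.02% of 14259 genes. Genes whose treated and DMSO libraries did not overlap were common at these group sizes. They made up 52.6% of all genes tested with Fucotrim I, 67.7% with Fucotrim II, 36% with SGN-2FF and 33.7% with P-SiaFNEtoc. The median log2 fold change of the 8 genes was -0.18, -0.30, -0.06 and 0.08 with Fucotrim I, Fucotrim II, SGN-2FF and P-SiaFNEtoc. In a bulk culture, less of an mRNA per cell and fewer cells that hold it cannot be told apart.

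Of the pioneer factors, GATA2 and GATA3 rose with SGN-2FF and with P-SiaFNEtoc, GATA2 fell with Fucotrim I and Fucotrim II, and FOXA1 rose with P-SiaFNEtoc. GATA3, a zinc finger factor of luminal epithelia, had the largest rise of the 8 genes. It was at 32.6, 28.1 and 32.3 CPM in DMSO, at 39.5, 38.9 and 37.8 CPM with SGN-2FF, and at 47.4, 43.8 and 44.5 CPM with P-SiaFNEtoc, so that both treated groups lay wholly above DMSO. The log2 fold change of GATA3 was 0.33 (SE 0.0662, edgeR adjusted p = 0.000613) with SGN-2FF and 0.55 (SE 0.0632, edgeR adjusted p = 1.78e-07) with P-SiaFNEtoc, a rise of 46.9% that ranked at percentile 97.3 of all genes tested there. With the Fucotrims the libraries were mixed with those of DMSO, at 29.4 to 30.7 CPM for Fucotrim I (log2 fold change -0.04, edgeR adjusted p = 0.678) and at 30.5 and 29.8 CPM for Fucotrim II (-0.04, edgeR adjusted p = 0.707). In order of mean GATA3 level the groups ran from Fucotrim I through Fucotrim II, DMSO and SGN-2FF to P-SiaFNEtoc. The first 3 overlapped their neighbours, while SGN-2FF was apart from DMSO and P-SiaFNEtoc from SGN-2FF.

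GATA2, which binds receptor enhancers in prostate cells and is needed there for receptor expression, lay on either side of DMSO. Its DMSO libraries had 193.2, 181.3 and 180.7 CPM. With Fucotrim I they had 161.9, 167.7 and 161.9 CPM and with Fucotrim II 143.8 and 169.1 CPM, all below DMSO, while SGN-2FF gave 207.6, 209.8 and 201.4 CPM and P-SiaFNEtoc 221.2, 223.2 and 249.3 CPM, all above it. On the log2 scale GATA2 fell by 0.17 with Fucotrim I (SE 0.0499, edgeR adjusted p = 0.00823) and by 0.25 with Fucotrim II (SE 0.078, edgeR adjusted p = 0.0238). It rose by 0.17 with SGN-2FF (SE 0.0402, edgeR adjusted p = 0.00357) and by 0.32 with P-SiaFNEtoc (SE 0.0449, edgeR adjusted p = 5.54e-06). The 2 falls were less firm than the rise with P-SiaFNEtoc, which passed under every alternative run. Without DMSO replicate 1 the edgeR adjusted p of the fall was 0.07 with Fucotrim I, leaving out any 1 library other than Fucotrim II replicate 2 gave 0.0558 to 0.113 for the fall with Fucotrim II, and that fall was 0.14 without Fucotrim II replicate 1 and 0.38 without Fucotrim II replicate 2. In order of level, Fucotrim II overlapped Fucotrim I, and Fucotrim I, DMSO, SGN-2FF and P-SiaFNEtoc were each apart from the next. The rise with SGN-2FF had an adjusted p of 0.0871 in 1 edgeR fit of all 14 libraries.

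GATA2 lies at chr3:128479427-128493201 on the minus strand of hg38 and shares 1.59% of its exon bases with the antisense gene GATA2-AS1, a partner named here after its values were seen. Reads from those shared bases could not be assigned, since the strand setting of the counting is not given in the sources used here. GATA2-AS1 had 815 to 1018 counts in the DMSO libraries and fell by 0.40 on the log2 scale with Fucotrim I (edgeR adjusted p = 0.00028). It had log2 fold changes of -0.22 with Fucotrim II (edgeR adjusted p = 0.0787), of -0.14 with SGN-2FF (edgeR adjusted p = 0.132) and of 0.11 with P-SiaFNEtoc (edgeR adjusted p = 0.229). The antisense partner was thus not called where GATA2 rose. GATA3, at chr10:8045378-8075198 on the plus strand, shares no exon base with another gene, and its divergent neighbour GATA3-AS1, also named after its values were seen, had only 30 to 58 counts in DMSO and a log2 fold change of 0.51 with P-SiaFNEtoc (edgeR adjusted p = 0.0652).

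FOXA1, the pioneer factor most tightly linked to the androgen receptor, lies at chr14:37589552-37596059 on the minus strand. It had 441, 425 and 430.1 CPM in DMSO and 476.3, 468.1 and 479.2 CPM with P-SiaFNEtoc, where it rose by 0.14 (log2, SE 0.0376, edgeR adjusted p = 0.0105). Every P-SiaFNEtoc library was above every DMSO library. That call was lost without DMSO replicate 3 (edgeR adjusted p = 0.0556) and in the fit of all 14 libraries (0.0627). With Fucotrim I it was at 414.7, 420.9 and 399.7 CPM and with Fucotrim II at 411.8 and 388.6 CPM, all below DMSO, with log2 fold changes of -0.07 (edgeR adjusted p = 0.248) and -0.12 (edgeR adjusted p = 0.143) that did not pass. Without Fucotrim II replicate 1 the latter was -0.16 (edgeR adjusted p = 0.012). SGN-2FF gave 415, 409.2 and 422.8 CPM, close below DMSO here and overlapping it when SGN-2FF was scaled with DMSO alone, with a log2 fold change of -0.04 (edgeR adjusted p = 0.394). The groups ran from Fucotrim II through Fucotrim I, SGN-2FF and DMSO to P-SiaFNEtoc, with overlap between the first 3.

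**Figure D2:**
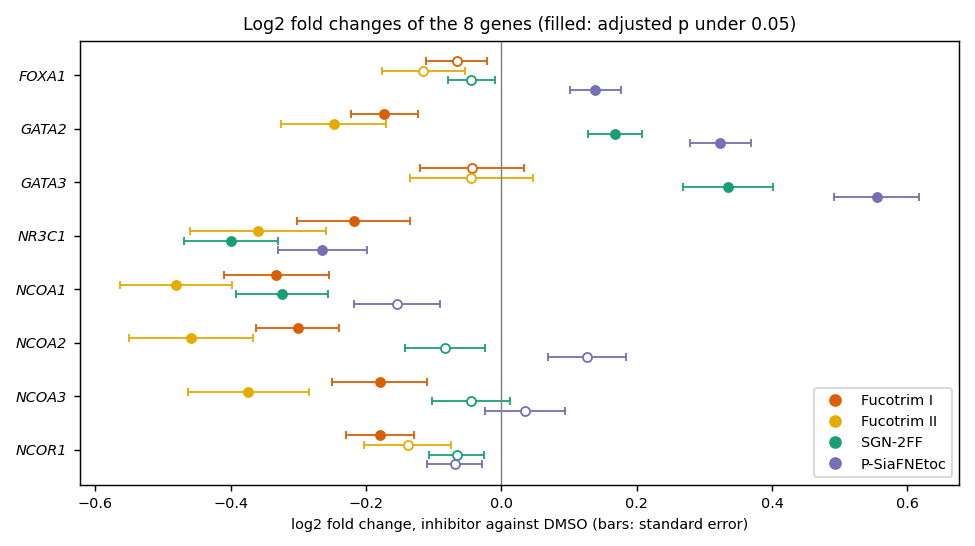
Log2 fold change against DMSO (x axis) of the 8 genes (y axis) with each inhibitor, with bars for the standard error and filled points where the edgeR adjusted p was under 0.05. NR3C1 is filled and to the left of 0 with all 4 inhibitors, while GATA2 is to the left with both Fucotrims and to the right with SGN-2FF and P-SiaFNEtoc.

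NR3C1 fell with all 4 inhibitors, which held for no other of the 8 genes. In DMSO the glucocorticoid receptor mRNA had 38.3, 38.7 and 34.9 CPM. It had 34.4, 34.2 and 27.1 CPM with Fucotrim I, 32.0 and 26.5 CPM with Fucotrim II, 25.4, 28.9 and 29.8 CPM with SGN-2FF, and 32.4, 32.2 and 28.3 CPM with P-SiaFNEtoc. All 11 treated libraries were therefore below all 3 DMSO libraries, although the highest Fucotrim I library was close to the lowest DMSO library. The fall was 0.40 on the log2 scale with SGN-2FF (SE 0.0693, edgeR adjusted p = 0.00014), which placed NR3C1 at percentile 2.76 of all genes tested. It was 0.36 with Fucotrim II (SE 0.1001, edgeR adjusted p = 0.0138), 0.26 with P-SiaFNEtoc (SE 0.0655, edgeR adjusted p = 0.00535) and 0.22 with Fucotrim I (SE 0.0836, edgeR adjusted p = 0.0399). The 4 comparisons share the DMSO libraries. With Fucotrim II the log2 fold change was -0.50 without Fucotrim II replicate 1 and -0.24 without Fucotrim II replicate 2 (edgeR adjusted p = 8.2e-05 and 0.0327). Treated groups next to each other in level overlapped, from SGN-2FF through Fucotrim II and P-SiaFNEtoc to Fucotrim I. The call with Fucotrim I rested on single libraries. Without Fucotrim I replicate 3 the log2 fold change was -0.12 (edgeR adjusted p = 0.265), and without DMSO replicate 1 or 2 the edgeR adjusted p was 0.113 or 0.102. DESeq2 gave an adjusted p of 0.0787 for it, and the fit of all 14 libraries gave 0.0587 with Fucotrim I and 0.0765 with P-SiaFNEtoc. NR3C1 lies at chr5:143277931-143435512 on the minus strand and overlaps no exon of another gene.

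On a list of genes that glucocorticoids induce in many cells, more genes rose than fell with each inhibitor. Of 12 such genes, all tested, 6 rose and 2 fell with Fucotrim I, and 6 rose and 1 fell with Fucotrim II. With SGN-2FF 3 rose and 1 fell, and with P-SiaFNEtoc 3 rose and none fell. Beside them, 21.6%, 25.6%, 11.5% and 9.02% of all tested genes rose and 22.1%, 25.7%, 9.08% and 7.33% fell in that order. The transcription factor KLF9 rose by 1.14 on the log2 scale with Fucotrim I, by 1.06 with Fucotrim II and by 0.66 with SGN-2FF, and the lipase inhibitor ANGPTL4 by 1.02, 1.24 and 0.52 in that order (edgeR adjusted p of 2.57e-05 or less for these 6). ERRFI1, a feedback inhibitor of the EGF receptor, fell by 0.25 and 0.40 with the 2 Fucotrims (edgeR adjusted p = 0.0085 and 0.00189) and rose by 0.43 with P-SiaFNEtoc (edgeR adjusted p = 4.38e-07). The circadian gene PER1 fell by 0.26 with SGN-2FF (edgeR adjusted p = 0.00238) and rose by 0.24 with Fucotrim II (edgeR adjusted p = 0.0209). With P-SiaFNEtoc the transcription factor TFCP2L1 rose by 0.34 (edgeR adjusted p = 0.00834). The median log2 fold change of the list was 0.29, 0.24, 0.04 and 0.07 in the order Fucotrim I, Fucotrim II, SGN-2FF and P-SiaFNEtoc, against medians of all genes between 0.0004 and 0.0075. Several of these genes also respond to other signals, and the list does not measure the receptor's activity.

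The 3 p160 coactivators fell with both Fucotrims. NCOA1 also fell with SGN-2FF, where NCOA2 and NCOA3 did not pass, and none of them passed with P-SiaFNEtoc. NCOA1, also known as SRC-1, had 33.7, 37.1 and 36.7 CPM in DMSO, 30.1, 29.4 and 25.4 CPM with Fucotrim I, 26.2 and 25.3 CPM with Fucotrim II, and 28.6, 26.4 and 30.5 CPM with SGN-2FF. None of these treated libraries reached the lowest DMSO library. The log2 fold change was -0.33 with Fucotrim I (SE 0.0778, edgeR adjusted p = 0.00171), -0.48 with Fucotrim II (SE 0.0828, edgeR adjusted p = 0.00112) and -0.32 with SGN-2FF (SE 0.0684, edgeR adjusted p = 0.00116), and the adjusted p stayed under 0.05 under every alternative run. With P-SiaFNEtoc the libraries of NCOA1 were also below DMSO, at 33.1, 29.9 and 33.1 CPM, but the log2 fold change of -0.15 did not pass (edgeR adjusted p = 0.0947). From Fucotrim II through Fucotrim I and SGN-2FF to P-SiaFNEtoc each group overlapped the next, and P-SiaFNEtoc was apart from DMSO. NCOA1 lies at chr2:24491254-24770702 on the plus strand.

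NCOA2, also known as TIF2 or SRC-2, had 54.9, 55.9 and 57.6 CPM in DMSO. It fell to 47.0, 45.1 and 44.1 CPM with Fucotrim I (log2 fold change -0.30, SE 0.0612, edgeR adjusted p = 0.000498) and to 44.99 and 36.99 CPM with Fucotrim II (log2 fold change -0.46, SE 0.0917, edgeR adjusted p = 0.00253). Neither group overlapped DMSO. SGN-2FF gave 47.5, 56.0 and 53.6 CPM and P-SiaFNEtoc 65.2, 63.2 and 54.3 CPM, and both groups overlapped DMSO, with log2 fold changes of -0.08 (edgeR adjusted p = 0.338) and 0.13 (edgeR adjusted p = 0.133). Without P-SiaFNEtoc replicate 3, the lowest of its group, that log2 fold change was 0.20 (edgeR adjusted p = 0.0108). Fucotrim II overlapped Fucotrim I, which was apart from SGN-2FF. NCOA2 lies at chr8:70109782-70403808 on the minus strand.

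NCOA3, also known as AIB1 or SRC-3 and often amplified in breast cancer, had 44.5, 47.7 and 43.0 CPM in DMSO. It had 40.9, 41.7 and 36.4 CPM with Fucotrim I and 37.5 and 32.5 CPM with Fucotrim II, all below DMSO. The log2 fold change was -0.37 with Fucotrim II (SE 0.0892, edgeR adjusted p = 0.00647) and passed under every alternative run. The value with Fucotrim I was -0.18 (SE 0.0704, edgeR adjusted p = 0.0445), and the call was lost with DESeq2's size factors (edgeR adjusted p = 0.0519), with the DESeq2 test (0.0992), with mitochondrially encoded genes left out (0.051) and without DMSO replicate 1 (0.0815), DMSO replicate 2 (0.182) or Fucotrim I replicate 3, where the log2 fold change was -0.12 (0.222). SGN-2FF libraries lay within the DMSO range at 43.2, 43.1 and 43.9 CPM (log2 fold change -0.04, edgeR adjusted p = 0.634). P-SiaFNEtoc libraries, at 49.3, 45.3 and 43.5 CPM, reached above and into it (log2 fold change 0.04, edgeR adjusted p = 0.734, and -0.02 without P-SiaFNEtoc replicate 1). As for NCOA2, Fucotrim I was apart from SGN-2FF, and the other neighbours in level overlapped. NCOA3 lies at chr20:47501887-47656877 on the plus strand and shares 2.94% of its exon bases with SULF2 on the opposite strand.

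NCOR1, the corepressor, fell with Fucotrim I and did not pass with the other inhibitors. It had 178.2, 175.8 and 182.3 CPM in DMSO and 165.7, 152.7 and 154.4 CPM with Fucotrim I, below every DMSO library (log2 fold change -0.18, SE 0.0506, edgeR adjusted p = 0.00712). With Fucotrim II it had 169.4 and 156.7 CPM, below DMSO as well, and a log2 fold change of -0.14 that did not pass (edgeR adjusted p = 0.0984). That value was -0.20 without Fucotrim II replicate 1 (edgeR adjusted p = 0.00596) and -0.09 without Fucotrim II replicate 2 (edgeR adjusted p = 0.192), and passed in the fit of all 14 libraries (edgeR adjusted p = 0.0431). Libraries of SGN-2FF (165.6, 168.1 and 174.6 CPM) and P-SiaFNEtoc (175, 168.9 and 165.7 CPM) lay close below the lowest DMSO library, and those of SGN-2FF overlapped DMSO when scaled with it alone, with log2 fold changes of -0.07 in both (edgeR adjusted p = 0.261 and 0.259). The treated groups overlapped one another in order of level from Fucotrim I to P-SiaFNEtoc. NCOR1 lies at chr17:16029065-16218185 on the minus strand and shares 5.44% of its exon sequence with opposite-strand genes, among them PIGL and TTC19.

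The changes were also set beside exon length. NR3C1, NCOA1, NCOA2, NCOA3 and NCOR1 have between 8417 and 15620 bases of exon and belong to the class of 8 kb or longer, while GATA3 (3396 bases), FOXA1 (4414) and GATA2 (4915) are shorter. Among all tested genes of 8 kb or longer, 30.2% fell with Fucotrim I and 37.3% with Fucotrim II, 14% with SGN-2FF and 11.1% with P-SiaFNEtoc. Among genes under 2 kb those shares were 6.54%, 8.38%, 1.78% and 2.22%. The median log2 fold change of the long class was -0.075, -0.139, -0.037 and -0.038 in that order. The falls of NCOA1, NCOA2 and NCOA3 with Fucotrim II, between 0.37 and 0.48, and the fall of NR3C1 with SGN-2FF went beyond the class median in size, and NCOR1 with Fucotrim II, at -0.14, was at it. Many genes of any class lie beyond its median, and the spread of the class is not given, so this comparison describes position only. The part of length in these falls was not tested.

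**Figure D3:**
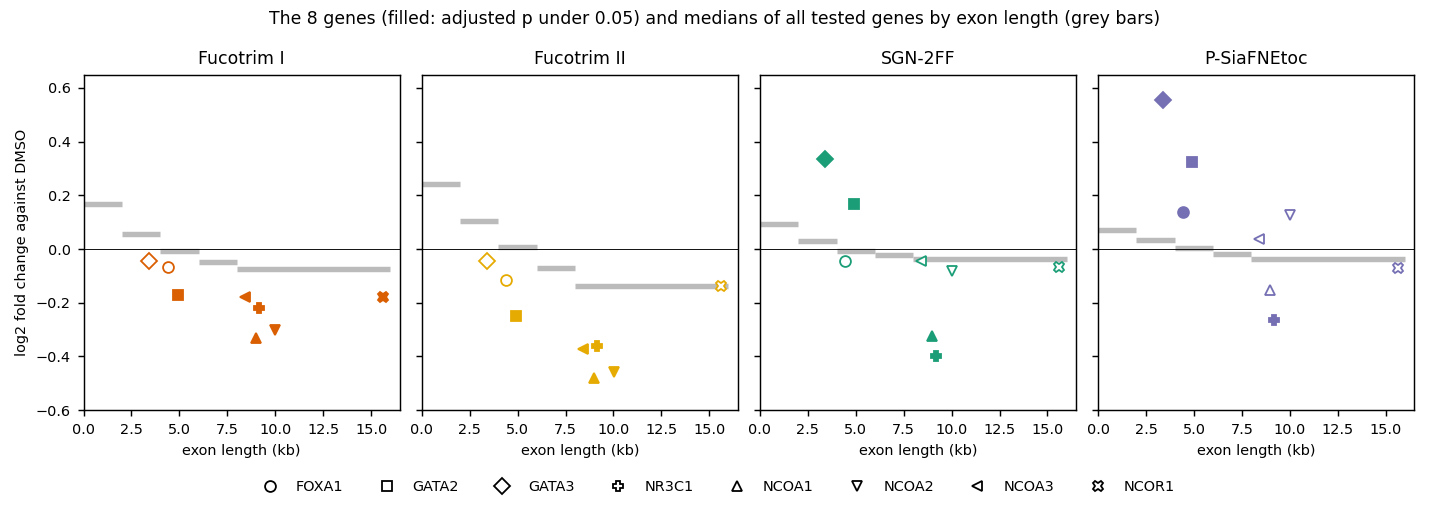
Log2 fold change against DMSO (y axis) of the 8 genes by exon length in kb (x axis), 1 panel per inhibitor, filled where the edgeR adjusted p was under 0.05. Grey bars are medians of all tested genes in 5 length classes, and fall from 0.244 under 2 kb to -0.139 at 8 kb and above with Fucotrim II.

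Other genes of the same machinery were taken from lists of cooperating transcription factors, coactivators and corepressors. Of 65 such genes 64 were found in the tables, and 59 were tested. With Fucotrim I 21 fell, 9 rose and 29 did not pass, and with Fucotrim II 21 fell, 8 rose and 30 did not pass. With SGN-2FF 10 fell and 7 rose, and with P-SiaFNEtoc 4 fell and 8 rose. Of all genes tested, 22.1% fell and 21.6% rose with Fucotrim I, 25.7% fell and 25.6% rose with Fucotrim II, 9.08% fell and 11.5% rose with SGN-2FF, and 7.33% fell and 9.02% rose with P-SiaFNEtoc. The medians of the 59 log2 fold changes were -0.06 with Fucotrim I, -0.13 with Fucotrim II, -0.0009 with SGN-2FF and -0.01 with P-SiaFNEtoc. Corepressors accounted for 10 of the falls with each of the Fucotrims, among 21 tested.

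HOXB13 and SPDEF, prostate luminal transcription factors that bind with the androgen receptor, rose with every inhibitor. HOXB13 rose by 0.73, 0.66, 0.44 and 0.32 on the log2 scale with Fucotrim I, Fucotrim II, SGN-2FF and P-SiaFNEtoc, and SPDEF by 0.66, 0.80, 0.45 and 0.34 (edgeR adjusted p of 0.000318 or less for these 8). The octamer factor POU2F1 fell with all 4 inhibitors, by 0.37, 0.64, 0.20 and 0.25 in the order given for HOXB13 (edgeR adjusted p of 0.0177 or less). CEBPB fell by 0.40 with Fucotrim I (edgeR adjusted p = 0.000986) and by 0.24 with SGN-2FF (edgeR adjusted p = 0.0268). The nuclear factor I genes were called in both directions. NFIB fell by 0.22 with Fucotrim I (edgeR adjusted p = 0.00199), by 0.36 with Fucotrim II (edgeR adjusted p = 0.00276) and by 0.17 with P-SiaFNEtoc (edgeR adjusted p = 0.00853), and NFIA fell by 0.21 with SGN-2FF (edgeR adjusted p = 0.0263). NFIC rose by 0.18 with Fucotrim I and by 0.14 with P-SiaFNEtoc (edgeR adjusted p = 0.00695 and 0.017), and NFIX rose by 0.22 with P-SiaFNEtoc (edgeR adjusted p = 0.000207).

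Of 27 coactivators tested, MED1, the Mediator subunit that nuclear receptors contact, fell with all 4 inhibitors. It had 109.9 to 115.8 CPM in DMSO and at most 105.3 CPM in any treated library. It fell by 0.39, 0.67, 0.20 and 0.13 on the log2 scale with Fucotrim I, Fucotrim II, SGN-2FF and P-SiaFNEtoc (edgeR adjusted p of 0.0346 or less). NCOA7 fell by 0.58 with Fucotrim I, by 0.62 with Fucotrim II and by 0.51 with SGN-2FF (edgeR adjusted p of 0.0017 or less). In the other direction the histone methyltransferases KMT2C and KMT2D rose by 0.43 and 0.37 with Fucotrim I (edgeR adjusted p = 1.95e-06 and 1.89e-05), and KMT2C rose by 0.35 with Fucotrim II (edgeR adjusted p = 0.0156) and by 0.15 with SGN-2FF (edgeR adjusted p = 0.0282). The acetyltransferase gene KAT2A rose by 0.24 with Fucotrim II (edgeR adjusted p = 0.0079) and by 0.18 with SGN-2FF (edgeR adjusted p = 0.00205), and the arginine methyltransferase gene PRMT1 by 0.16 with P-SiaFNEtoc (edgeR adjusted p = 0.00587).

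Among corepressors, the ligand-dependent corepressor LCOR fell with every inhibitor, by 0.39, 0.65, 0.21 and 0.17 on the log2 scale with Fucotrim I, Fucotrim II, SGN-2FF and P-SiaFNEtoc (edgeR adjusted p of 0.0404 or less). NRIP1, also called RIP140, fell by 0.30 with Fucotrim I and by 0.47 with Fucotrim II (edgeR adjusted p = 0.00457 and 0.00274). The REST corepressor RCOR1 fell by 0.25 with Fucotrim I and by 0.57 with Fucotrim II (edgeR adjusted p = 0.00332 and 0.000178). GPS2, a small subunit of the NCOR complexes, rose by 0.28 with Fucotrim I (edgeR adjusted p = 0.000806) and by 0.35 with Fucotrim II (edgeR adjusted p = 0.00157). Of the Groucho family genes, TLE1 fell by 0.40 with SGN-2FF (edgeR adjusted p = 0.0314). TLE3 fell by 0.13 with Fucotrim I (edgeR adjusted p = 0.0455) and by 0.38 with Fucotrim II (edgeR adjusted p = 0.00163), and rose by 0.14 with P-SiaFNEtoc (edgeR adjusted p = 0.0173).

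Chaperones hold steroid receptors ready for hormone. Of 9 tested, 5 fell and 2 rose with Fucotrim I, 6 fell and 2 rose with Fucotrim II, 2 fell and 1 rose with SGN-2FF, and 5 fell and none rose with P-SiaFNEtoc. Of all genes tested, 22.1%, 25.7%, 9.08% and 7.33% fell and 21.6%, 25.6%, 11.5% and 9.02% rose in that order. HSPA8 fell by 0.46 with Fucotrim I (edgeR adjusted p = 1.96e-07), by 0.48 with Fucotrim II (0.00048) and by 0.33 with P-SiaFNEtoc (8.98e-07). Its partner DNAJA1 fell by 0.31 and 0.52 with Fucotrim I and Fucotrim II (edgeR adjusted p = 6.05e-05 and 0.000138). The p23 gene PTGES3 fell by 0.29 with Fucotrim I, by 0.60 with Fucotrim II and by 0.17 with SGN-2FF (edgeR adjusted p of 0.000505 or less). HSP90AA1 fell by 0.16, 0.50, 0.16 and 0.21 with Fucotrim I, Fucotrim II, SGN-2FF and P-SiaFNEtoc (edgeR adjusted p of 0.00885 or less). Calls with P-SiaFNEtoc are given here for HSPA8, HSP90AA1 and FKBP5 only. FKBP5, an HSP90 co-chaperone that androgens and glucocorticoids both induce, rose by 0.98 with Fucotrim I, by 0.68 with Fucotrim II and by 0.35 with SGN-2FF (edgeR adjusted p of 4.12e-05 or less), and fell by 0.15 with P-SiaFNEtoc (edgeR adjusted p = 0.00833). BAG1 rose by 0.18 and 0.29 with the 2 Fucotrims (edgeR adjusted p = 0.0144 and 0.0226).

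**Figure D4:**
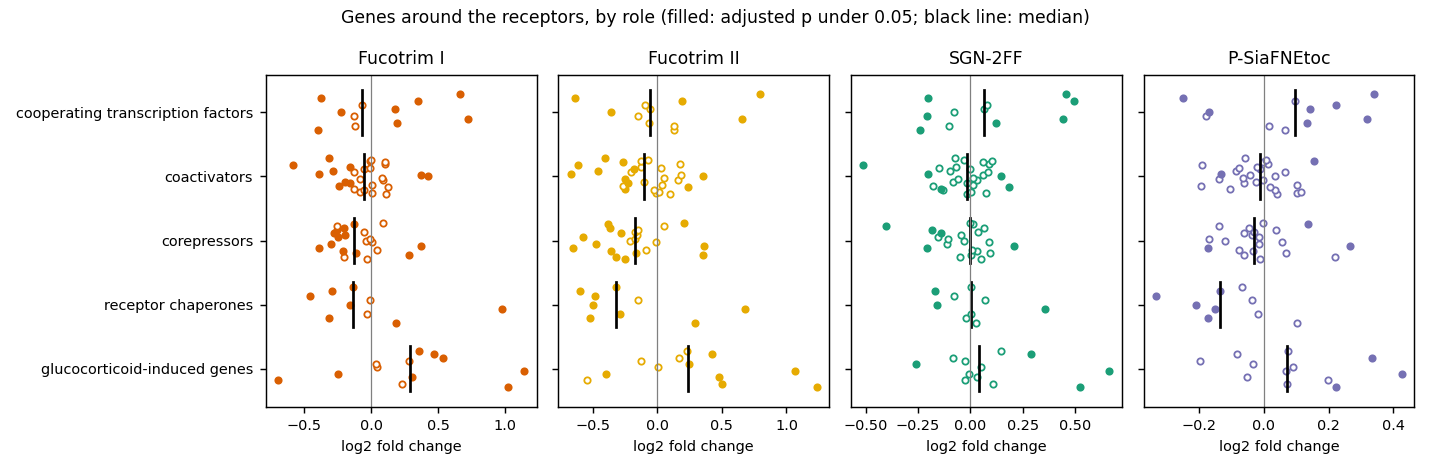
Log2 fold change against DMSO (x axis, own scale in each panel) of the tested genes of 5 lists (y axis), 1 panel per inhibitor. Each point is a gene, filled where the edgeR adjusted p was under 0.05, and black lines are medians, which for chaperones lie at -0.13 with Fucotrim I and -0.32 with Fucotrim II.

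Luminal markers, several of them genes that the androgen receptor switches on, rose in nearly all cases, with 9 of 10 called with each of the Fucotrims, 10 with SGN-2FF and 8 with P-SiaFNEtoc, and none called lower. Of all genes tested, 21.6% rose with Fucotrim I, 25.6% with Fucotrim II, 11.5% with SGN-2FF and 9.02% with P-SiaFNEtoc, and 22.1%, 25.7%, 9.08% and 7.33% fell. HOXB13 is also on the list of cooperating factors. TMPRSS2 rose by 1.38, 1.41, 1.14 and 0.67 with Fucotrim I, Fucotrim II, SGN-2FF and P-SiaFNEtoc (edgeR adjusted p of 3.31e-06 or less). KLK2 rose by 0.99, 0.81, 1.27 and 0.76 in that order (edgeR adjusted p of 4.66e-05 or less). KLK3, which encodes PSA, rose by 1.15 with Fucotrim I, by 0.59 with Fucotrim II and by 1.32 with SGN-2FF (edgeR adjusted p of 0.00065 or less). SLC45A3 rose by 0.57, 1.06 and 0.85 with Fucotrim I, Fucotrim II and SGN-2FF (edgeR adjusted p of 4.34e-05 or less). The summed level of the 10 markers was 2089 to 2193 CPM in DMSO, 3036 to 3130 with Fucotrim I, 2876 to 3201 with Fucotrim II, 2759 to 2900 with SGN-2FF and 2498 to 2592 with P-SiaFNEtoc. The neuroendocrine gene CHGB rose with all 4 inhibitors by 0.26, 0.68, 0.18 and 0.29 (edgeR adjusted p of 0.0197 or less) and SYP by 0.15 and 0.44 with the Fucotrims (edgeR adjusted p = 0.0449 and 0.00239). CHGA and INSM1 of the same list averaged under 1 count a library in the DMSO and Fucotrim I libraries. The summed level of the 6 neuroendocrine markers, of which 2 averaged at least 10 counts, was 150.3 to 165.9 CPM in DMSO, 167.5 to 193.8 with Fucotrim I, 219.5 to 239 with Fucotrim II, 151.4 to 168.5 with SGN-2FF and 170 to 176.8 with P-SiaFNEtoc. DST of the basal list rose by 0.26 with Fucotrim I (edgeR adjusted p = 0.00197) and COL1A1 of the stromal list by 0.59 with Fucotrim II (edgeR adjusted p = 0.00185). The summed level of the 5 basal markers was 58.0 to 61.5 CPM in DMSO and 68.3 to 78.5 CPM with Fucotrim I, and that of the 8 stromal and blood cell markers was 17.9 to 19.6 CPM in DMSO and 24.1 to 30.6 CPM with Fucotrim II. Their part in the changes of the 8 genes was not tested.

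The pattern of each gene over the 14 libraries was compared with that of 11828 other genes as the root mean square (RMS) difference of log2 CPM, each gene centred on its DMSO mean. FAM168A (0.0416) and PAFAH2 (0.0522) were nearest to FOXA1, against a median RMS difference of 0.215 over all candidates. HDGF (0.0859) and EPHB3 (0.087) were nearest to GATA2, and SGK2 (0.102) and PLXNA2 (0.104) to GATA3. The list for NR3C1 was CCSER2 (0.0814) and SGPP1 (0.0885), for NCOA1 LYRM2 (0.0668) and VPS54 (0.0732), and for NCOA2 FNIP2 (0.0699) and TNIK (0.0767). EPM2AIP1 (0.0433) and XIAP (0.0467) were nearest to NCOA3, and VHL (0.0339) and NSUN4 (0.0423) to NCOR1. Among the 8 genes themselves, NCOA2 and NCOA3 were the closest pair (0.109) and GATA3 and NR3C1 the farthest (0.548), in RMS log2 units over the same 14 libraries, which share depth and scaling.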

How the data were processed

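RNA-seq was performed on CWR22Rv1 cells treated for 72 h. The authors used Cutadapt for trimming, HISAT2 for mapping to hg38 and featureCounts for counting, and deposited raw counts per gene, 1 table for each inhibitor, which repeats the DMSO libraries. The annotation release, strand setting and handling of multi-mapping reads are not given in the sources used here. Replicates are labelled as biological, and Fucotrim II has 2 here against 3 in the stated design. Genes were found by symbol or, for SGN-2FF, by NCBI gene number. Positions and exon lengths come from GENCODE v44 (hg38).

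From the counts, each inhibitor was fitted with DMSO in edgeR 4.0.16 (R 4.3.3; filterByExpr, minimum count 10, minimum total 15; TMM; robust quasi-likelihood test), and p-values were adjusted over all genes tested (Benjamini-Hochberg, threshold 0.05). The SE is the log2 fold change divided by the root of F. Counting error is small at totals of 12553094 to 19981453, and replicates differed by more than it (chi-square per degree of freedom 1.62 to 26.5), so none was merged. The test was also run on simulated counts in which far fewer genes changed than were called with the Fucotrims. That run does not measure its error in these data.

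Alternatives were DESeq2 1.42.0 (size factors, test), limma-voom 3.58.1, no filter, at least 10 counts in every library, leaving out each library, the replicate number as a block, 1 fit of all 14 libraries, and leaving out mitochondrially encoded genes. The members and lists were chosen with earlier results of these data known. Named were the 8 genes, for each the 2 nearest in pattern, and of each list up to 2 called genes per inhibitor and direction with the largest change (mean count 50 or more). The relatives, the antisense genes, NFIC, NFIX and further calls of genes the rule names (such as POU2F1 and HOXB13 with SGN-2FF, or TLE3, FKBP5 and PER1 where they went the other way), outside this rule, were named after their values were seen. The gene of the androgen receptor was not analysed here, and some genes that this rule or the lists give are not reported here.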

Additional observations from a re-analysis of the deposited data

How the results depend on the processing

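Across settings other than leaving out a library, 254 log2 fold changes of the 8 genes kept their direction and side of the threshold, 9 lost the call and 1 gained it. Across fits that left out 1 library, 168 did so, 12 lost the call, 3 gained it and 1 changed sign, NCOA3 with P-SiaFNEtoc (-0.0222 without P-SiaFNEtoc replicate 1, up to 0.0798 without DMSO replicate 2), which was not called in these fits. Without 1 library the number of the 8 genes called ranged from 3 to 6 with Fucotrim I (6 with all libraries, 3 without DMSO replicate 1), from 4 to 6 with Fucotrim II (5), was 4 in every such fit with SGN-2FF (4) and ranged from 3 to 5 with P-SiaFNEtoc (4). In 1 fit of all 14 libraries 2 were called with P-SiaFNEtoc. Of the 59 genes of the coregulator and cooperating factor lists, leaving out 1 library gave 24 to 29 calls with Fucotrim I (30 with all), 18 to 36 with Fucotrim II (29; 18 without DMSO replicate 3), 9 to 18 with SGN-2FF (17; 11 without DMSO replicate 3 and 9 without SGN-2FF replicate 2) and 8 to 13 with P-SiaFNEtoc (12). With SGN-2FF 10 were called by the DESeq2 test and 9 in the fit of all 14 libraries, and with P-SiaFNEtoc 4 in the latter. The cause of these moves was not tested. A fit that leaves 1 Fucotrim II library assumes that it varies like DMSO.

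With the replicate number as a block, 6, 4, 4 and 4 of the 8 genes were called (Fucotrim I, Fucotrim II, SGN-2FF, P-SiaFNEtoc), and for Fucotrim II 17 of the 59 listed genes; with the numbers in the library names, which differ from those in the titles, 5 and 29 were called. Same-numbered libraries deviated together with correlations of 0.125, 0.107 and 0.024 for Fucotrim I, -0.146 and -0.192 for Fucotrim II by title (0.192 and 0.048 by library name), 0.016, -0.023 and -0.096 for SGN-2FF, and -0.04, 0.024 and -0.028 for P-SiaFNEtoc. The number of libraries that correlated best with their own number was 2 of 3, 0 of 3 and 1 of 3 for Fucotrim I, SGN-2FF and P-SiaFNEtoc, so the numbers were not used as pairs. Other scalings moved the median of all genes by at most 0.0072 on the log2 scale. Per kb of the reference coding transcript in place of all exons, DMSO levels were 123.1 CPM for FOXA1, 54.7 for GATA2, 16.7 for NCOR1, 10.1 for GATA3, 6.66 for NCOA2, 5.67 for NCOA3, 5.51 for NR3C1 and 4.86 for NCOA1, in the same order as before.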
